A study of Mus musculus with 6 samples.

Results

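Ceruloplasmin, the ferritins, the transferrin receptor and the other genes described here take iron into cells, store it, send it out or sense how much there is. They were 10 of the 54532 genes listed in the deposited counts, namely Cp, Slc40a1, Tfrc, Steap3, Slc11a2, Fth1, Ftl1, Ncoa4, Ireb2 and Aco1. All 10 matched a mouse gene symbol and passed the low-count limit of 10 reads over 6 libraries, as did 19452 genes in all. They were chosen by their function and with results of the same SAFB KD against control comparison already known, so their values and calls in it are given as a description and test nothing about them.

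Poly(A)+ RNA was sequenced from 3 SAFB KD and 3 control libraries of the mouse line Flp-In 3T3, fibroblasts of embryonic origin grown in culture. SAFB KD cells received siRNAs that target Safb, Safb2 and Sltm together, and control cells received a control siRNA. Safb, Safb2 and Sltm encode related nuclear RNA-binding proteins. Per the methods of the study, cells were transfected, transfected again a day later and harvested on the third day. Replicates are called biological in the series text. The comparison asks how levels of mRNA change when the SAFB proteins are reduced.

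Ferric iron bound to transferrin enters cells through the transferrin receptor, is reduced in endosomes and moves into the cytosol, where ferritin stores what is not used. Ferroportin is the exporter, and ceruloplasmin, a copper-carrying ferroxidase, oxidizes the exported iron so that transferrin can bind it. When iron is scarce, iron regulatory proteins bind hairpins called iron-responsive elements (IREs). Bound to an IRE in the 5′ UTR of a ferritin or ferroportin mRNA they hold back its translation, and bound to IREs in the 3′ UTR of transferrin receptor mRNA they protect it from decay. Cp is best known from liver, where the protein is secreted, and from astrocytes.

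IREs were looked for by their letters, because they are the feature that ties several of these mRNAs to one regulator. The search took a bulged C, 5 stem bases, the loop CAGTGN, in which N is any base, and 5 stem bases that pair with the first 5, with G and T (U in RNA) allowed to pair. It read the annotated sense strand of UTRs only. Matches lay in 4 of the 10 genes, against 155 of 21002 protein-coding genes (0.738%). These 4 genes were known beforehand to carry IREs, so the shares are a description and test nothing. Sequences come from the GENCODE transcripts of GRCm38 and are written as DNA, 5′ to 3′ along the mRNA, with the loop in capitals and 6 bases of flank on either side.
Fth1 5′ UTR: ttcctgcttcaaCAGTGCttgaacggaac
Ftl1 5′ UTR: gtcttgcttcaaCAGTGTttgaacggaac
Slc40a1 5′ UTR: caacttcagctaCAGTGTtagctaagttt
Tfrc 3′ UTR, match 1: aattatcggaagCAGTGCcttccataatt
Tfrc 3′ UTR, match 2: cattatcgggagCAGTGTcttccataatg
Tfrc 3′ UTR, match 3: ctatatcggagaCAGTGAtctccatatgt
Tfrc 3′ UTR, match 4: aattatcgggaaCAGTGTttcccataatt

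The Fth1 match lay at chr19:9982732-9982760 on the plus strand, the Ftl1 match at chr7:45459779-45459807 on the minus strand and the Slc40a1 match at chr1:45925465-45925493 on the minus strand. The Tfrc matches were at chr16:32631219-32631247, chr16:32631598-32631626, chr16:32631663-32631691 and chr16:32631710-32631738, all on the plus strand. Both ferritin matches had the same stem letters on either side of the loop. Match 2 of Tfrc needed a G and T pair, and the others paired by Watson-Crick rules alone. Matches in a 5′ UTR were found in 28 of 20520 genes (0.136%) and matches in a 3′ UTR in 127 of 20867 genes (0.609%). A match is a description of letters, not evidence of protein binding, and no match was found in Slc11a2 by this pattern.

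**Figure D1:**
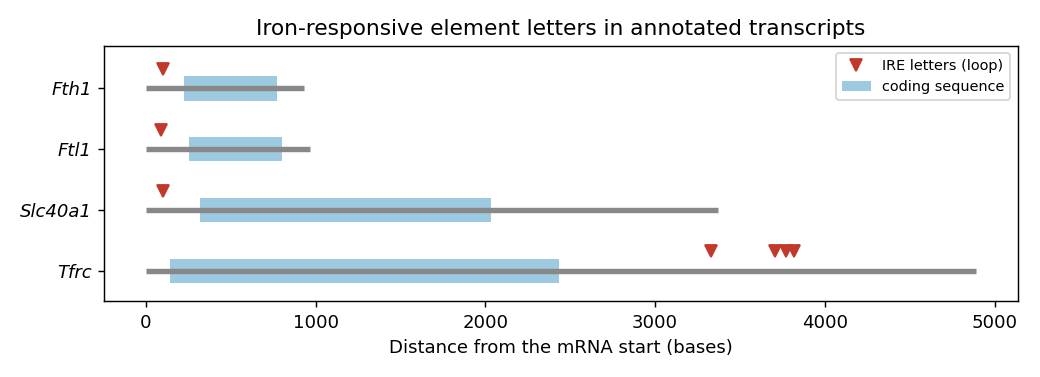
Positions of IRE letters along 4 annotated mRNAs, in bases from the mRNA start. Blue boxes are coding sequence, grey lines are the whole mRNA and red triangles mark the first base of each loop. Fth1, Ftl1 and Slc40a1 have 1 match each, before the coding sequence, and Tfrc has 4, all after it.

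The knockdown lowered each of its targets. Safb had 48.5, 46.8 and 44.5 CPM in SAFB KD 1 to 3, against 90.2, 94.8 and 96.1 CPM in control 1 to 3 (log2 fold change -1.01, SE 0.040, adjusted p = 6.56e-23 by the edgeR quasi-likelihood test). CPM are counts scaled for library size, here with TMM factors. Safb2 fell by 0.64 on the log2 scale (SE 0.047, adjusted p = 1.28e-14) and Sltm fell by 0.70 (SE 0.037, adjusted p = 9.40e-19). Total counts per library ran from 33323307 to 53441129. Control 3 stood apart from the other controls on the second principal component (16.3% of the variance), at 44.2 where they lay at -23.1 and -26.5. All 10 listed fibroblast markers had a mean of at least 1 CPM. Their summed level was 18314 to 18796 CPM in SAFB KD and 19867 to 21830 CPM in control. At an adjusted p under 0.05 by the same test, 8 of the 10 were called lower and 0 higher. Over all genes tested 20.1% were called lower and 21.4% higher. Against a threshold of 2-fold 2 of the 10 were called lower, beside 1.22% of all genes in either direction. Hepatocyte markers summed to under 0.1 CPM in every library and erythroid markers to at most 0.171 CPM.

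Cp differed more than any of the other 9 genes. Cp (chr3:19957054-20009145, plus strand) had 56.4, 58.2 and 59.9 CPM in SAFB KD, against 306, 313 and 313 CPM in control. The control libraries lay far above the SAFB KD libraries, and within each group the values lay close together. The means were 58.2 ± 1.75 and 311 ± 3.96 CPM (SD, n = 3 each), which left 18.7% of the control level and made Cp 5.34-fold lower (log2 fold change -2.42, SE 0.033). These values rest on 1984, 2510 and 3141 reads in SAFB KD 1 to 3 and 13288, 12730 and 10507 reads in control 1 to 3. Among the 1056 tested genes with a mean level at or above that of Cp, 0 had a lower log2 fold change. Over all 19452 genes tested, whatever their level, 151 had a log2 fold change at or below that of Cp, Cp included. Without control 3 the log2 fold change of Cp was also -2.42.

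Bulk RNA cannot separate fewer cells that express a gene from less RNA per cell, and this holds for each value below too. Astrocyte markers, listed because astrocytes make Cp, summed to 33.7 to 34.9 CPM in SAFB KD and 56.2 to 59.0 CPM in control, so they were lower together with Cp. Nearly all of this was the glutamate transporter gene Slc1a3. Of the 5 markers listed, 2 had a mean of at least 1 CPM and 3 were tested. The edgeR quasi-likelihood test called 2 of these lower and 0 higher, beside 20.1% and 21.4% of all genes tested. Aqp4 had 0 reads in every library and S100b had 4 reads in all. The part of the astrocyte markers in the Cp result was not tested.

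**Figure D2:**
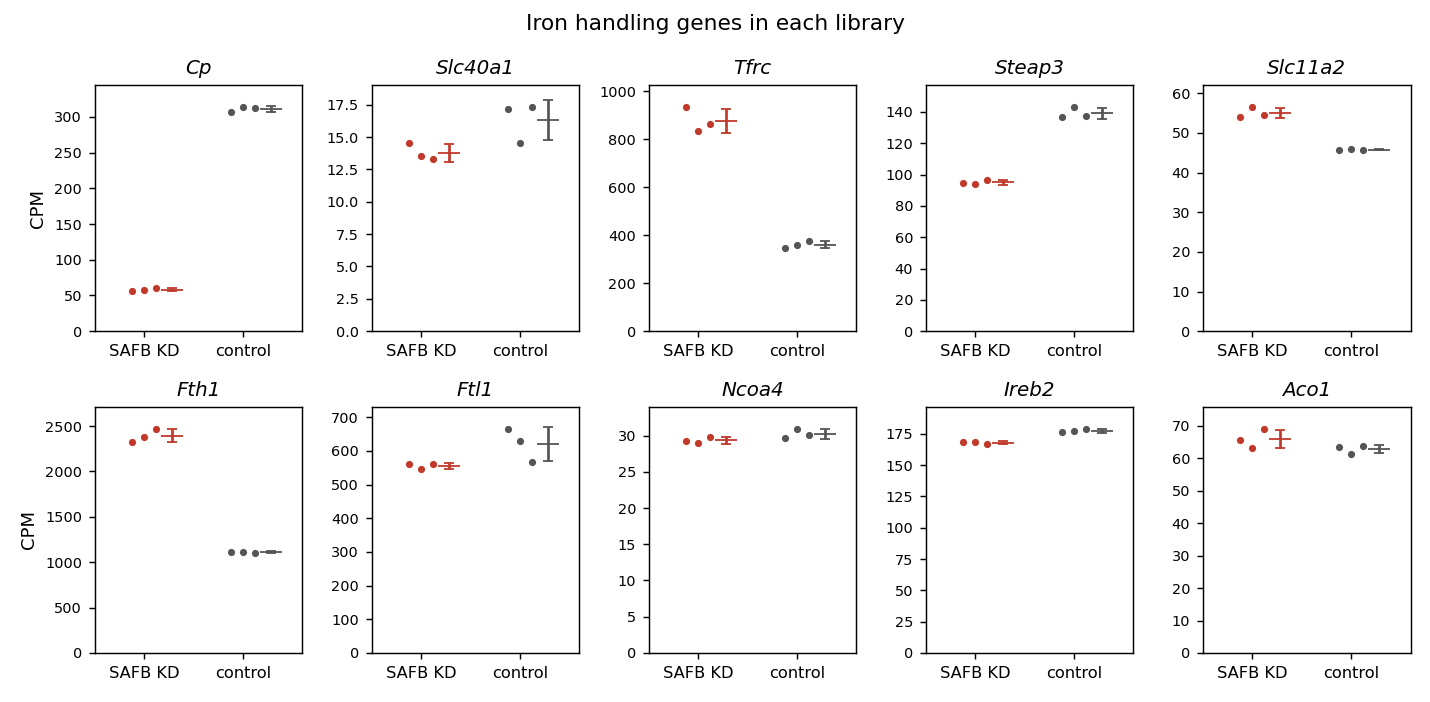
CPM of each gene in every library, with 3 SAFB KD (red) and 3 control (grey) libraries as points and the mean with SD as a bar at the right of each group. Every axis starts at 0. Cp lies between 56.4 and 59.9 CPM in SAFB KD, far below control, while Tfrc and Fth1 lie above control in every SAFB KD library.

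Ferroportin mRNA also lay lower in SAFB KD, by a small amount. Slc40a1 (chr1:45908068-45926523, minus strand) encodes the exporter. It had 14.6, 13.5 and 13.3 CPM in SAFB KD and 17.1, 14.6 and 17.3 CPM in control. The groups only just did not overlap, with 14.55 CPM in SAFB KD 1 and 14.57 CPM in control 2. The means were 13.8 ± 0.678 and 16.3 ± 1.53 CPM (log2 fold change -0.25, SE 0.071), and without control 2 the log2 fold change was -0.34. Its reduction was thus much smaller than that of Cp on the log2 scale.

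The closest relatives of Cp had few reads. Heph encodes hephaestin, a membrane-bound multicopper ferroxidase, and had 0.824, 0.998 and 0.991 CPM in SAFB KD against 1.36, 1.40 and 1.85 CPM in control. Heph fell by 0.69 on the log2 scale (SE 0.22, adjusted p = 0.0108), with no overlap of the groups, but without control 3 the change was -0.56 and no longer passed the test. Hephl1, a further relative, had 7 reads over the 6 libraries and was not tested.

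Of the other genes that supply or handle copper, Cox17, a copper chaperone for cytochrome oxidase, rose (log2 fold change 0.56, adjusted p = 3.44e-05), as did the copper importer gene Slc31a1 (0.16, adjusted p = 0.000273) and Commd1 (0.22, adjusted p = 0.00583), which takes part in copper transporter traffic. Atp7b, a copper pump that loads ceruloplasmin in liver, had only 0.600 ± 0.174 CPM in SAFB KD and 1.21 ± 0.361 CPM in control (-0.97, adjusted p = 0.00498). Of the 9 tested genes of this list, Heph included, 3 rose and 2 fell by the edgeR quasi-likelihood test at an adjusted p under 0.05, beside 21.4% of all genes tested called higher and 20.1% called lower. No list was tested against other genes, so its counts are descriptions to be read beside these shares. Without control 3 neither fall passed, and without SAFB KD 1 Commd1 did not pass (0.14).

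Genes of iron uptake went in both directions. Tfrc (chr16:32608920-32632794, plus strand), the transferrin receptor, had 934, 835 and 865 CPM in SAFB KD, against 346, 360 and 376 CPM in control. Every SAFB KD library lay at more than 2-fold the level of every control library. The means were 878 ± 50.9 and 361 ± 14.9 CPM, 2.43-fold higher in SAFB KD (log2 fold change 1.28, SE 0.034). Of the 179 tested genes with a mean level at or above that of Tfrc, 0 had a higher log2 fold change. Of all 19452 genes tested, whatever their level, 18673 (96.0%) had a log2 fold change at or below that of Tfrc, Tfrc included.

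Steap3 (chr1:120190757-120272705, minus strand) encodes the endosomal reductase that acts after the transferrin receptor. It had 94.4, 94.1 and 96.6 CPM in SAFB KD, against 137, 143 and 137 CPM in control. It was lower in each SAFB KD library, the opposite direction to Tfrc (log2 fold change -0.55, SE 0.033). Slc11a2 (chr15:100387898-100425072, minus strand) encodes DMT1, the transporter that moves ferrous iron into the cytosol. It had 54.1, 56.5 and 54.7 CPM in SAFB KD and 45.7, 45.9 and 45.7 CPM in control, and the groups did not overlap (log2 fold change 0.27, SE 0.042). The 3 proteins act in sequence on one route, and their mRNAs were 2.43-fold higher, 1.46-fold lower and 1.20-fold higher, in the order receptor, reductase and transporter.

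Besides these 3 genes, 9 of 11 listed genes of uptake and surface reduction could be tested. Slc39a8, a zinc and iron importer, fell to 10.2 ± 0.335 CPM in SAFB KD, against 18.3 ± 0.787 CPM in control (log2 fold change -0.84, adjusted p = 3.35e-13). Its relative Slc39a14 rose by 0.20 (adjusted p = 1.59e-05). Genes of the STEAP family also split, with Steap2 falling by 0.34 (adjusted p = 3.46e-11) and Steap1 rising by 0.40 (adjusted p = 4.08e-10). In all 2 genes of this list rose and 3 fell by the edgeR quasi-likelihood test, beside 21.4% and 20.1% of all genes tested.

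The ferritin subunits differed in opposite directions. Fth1 (chr19:9980598-9985098, plus strand) encodes the heavy subunit, which has ferroxidase activity. It had 2329, 2383 and 2466 CPM in SAFB KD, against 1114, 1115 and 1099 CPM in control. All SAFB KD libraries lay above all control libraries, with means of 2393 ± 69.1 and 1109 ± 8.92 CPM, 2.16-fold higher in SAFB KD (log2 fold change 1.11, SE 0.028). Of the 36 tested genes with a mean level at or above that of Fth1, 1 had a higher log2 fold change. This was Thbs1, which encodes the secreted protein thrombospondin 1 (1.12). Of all 19452 genes tested, whatever their level, 18447 (94.8%) had a log2 fold change at or below that of Fth1, Fth1 included.

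Ftl1 (chr7:45457944-45459884, minus strand) encodes the light subunit, which helps the mineral core to form. It had 561, 545 and 561 CPM in SAFB KD and 665, 629 and 568 CPM in control. Control 3 was close to the SAFB KD libraries and the other controls were further above them. The means were 556 ± 8.91 and 621 ± 49.2 CPM (log2 fold change -0.16, SE 0.035). The value was -0.23 without control 3 and -0.12 without control 1, so its size depended on which control was used.

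The ratio of Fth1 to Ftl1 per kilobase of merged exons was 1.605, 1.69 and 1.70 in SAFB KD 1 to 3, against 0.647, 0.684 and 0.748 in control 1 to 3. The length chosen scales all 6 ratios alike, so the separation of the groups does not depend on it, while the side of 1 on which control lies does. Reads that fit several ferritin copies equally well are not in the counts. Of the annotated ferritin pseudogenes, Ftl1-ps1 (350 reads over the 6 libraries), Ftl1-ps2 (57) and Fth-ps2 (56) had enough reads to test, and their adjusted p values were 0.488, 0.429 and 0.458 by the edgeR quasi-likelihood test.

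Ncoa4 (chr14:32159865-32179855, plus strand) encodes the receptor that takes ferritin to the lysosome, where its iron is freed. It had 29.2, 28.9 and 29.8 CPM in SAFB KD and 29.6, 30.9 and 30.1 CPM in control. The groups overlapped, and the log2 fold change of -0.04 was smaller than its SE of 0.051. Among chaperones that load ferritin and genes of ferritin turnover, Pcbp2, an iron chaperone that also binds RNA, fell to 396 ± 0.433 CPM in SAFB KD, against 510 ± 14.0 CPM in control (-0.37, adjusted p = 1.19e-13). Herc2, a ubiquitin ligase gene whose product marks NCOA4 for decay, fell by 0.56 (adjusted p = 1.45e-17). Pcbp4 rose by 0.17 (adjusted p = 0.00152) and Cd63, a vesicle protein gene linked to ferritin release, by 0.13 (adjusted p = 0.000336). Of 6 tested genes in this list 2 rose and 2 fell by the edgeR quasi-likelihood test, beside 21.4% and 20.1% of all genes tested.

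The iron regulatory proteins differed little. Ireb2 (chr9:54863789-54912530, plus strand) encodes IRP2, which is degraded when iron is plentiful. It had 169, 168 and 167 CPM in SAFB KD and 176, 177 and 179 CPM in control. The groups did not overlap, and the difference was small (log2 fold change -0.08, SE 0.030). Aco1 (chr4:40143081-40198338, plus strand) encodes IRP1, which is an aconitase when it holds an iron-sulfur cluster. It had 65.7, 63.2 and 69.0 CPM in SAFB KD and 63.6, 61.4 and 63.6 CPM in control, with overlap of the groups (log2 fold change 0.07, SE 0.040). Binding of these proteins to IREs was not measured.

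Among regulators of IRPs and of hepcidin, a liver hormone that controls ferroportin, Fbxl5 rose. Fbxl5 encodes the iron-sensing adaptor that brings IRP2 to a ubiquitin ligase. It had 124, 125 and 123 CPM in SAFB KD, against 88.5, 89.9 and 87.2 CPM in control (log2 fold change 0.48, adjusted p = 2.10e-15). Of the receptor and co-receptor genes of the hepcidin pathway, Bmpr2 (log2 fold change -0.79, adjusted p = 2.51e-21), Bmpr1a (-0.23, adjusted p = 1.47e-07) and Neo1 (-0.20, adjusted p = 5.88e-06) fell. Acvr1, a further receptor gene named after its value was seen, did not pass (-0.07, adjusted p = 0.172). Of 15 listed genes 11 were tested. By the edgeR quasi-likelihood test 1 of these rose and 4 fell, beside 21.4% and 20.1% of all genes tested. Hamp, the hepcidin gene, had 1 read over the 6 libraries.

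**Figure D3:**
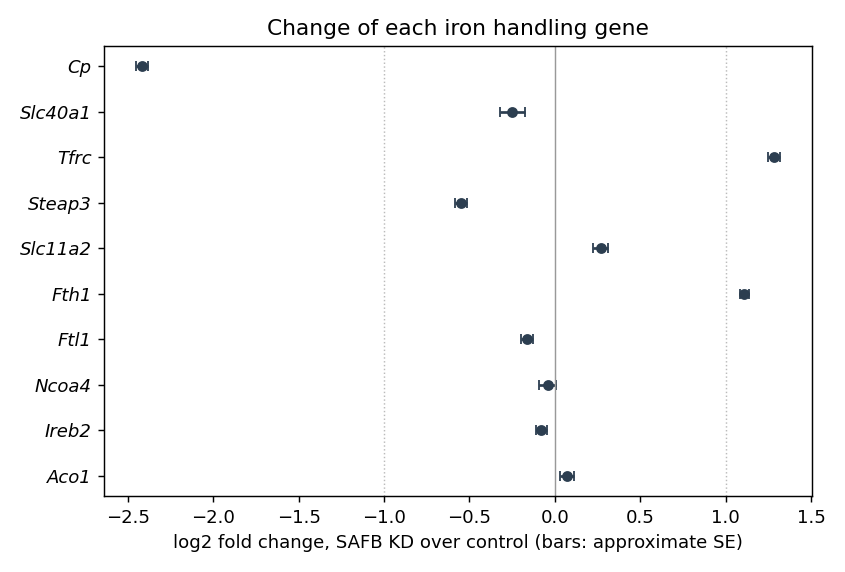
Log2 fold change of each gene, SAFB KD over control, with its approximate SE as a bar. Dotted lines mark 2-fold. Cp lies at -2.42, Tfrc at 1.28 and Fth1 at 1.11, and the other genes lie within 2-fold.

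By the edgeR quasi-likelihood test at an adjusted p under 0.05, 3 of the 10 genes were called higher (Tfrc, Fth1 and Slc11a2) and 5 lower (Cp, Slc40a1, Ftl1, Ireb2 and Steap3). Over all genes tested, 41.5% were called, 21.4% higher and 20.1% lower. Groups did not overlap for 8 of the 10 genes and for 49% of all genes tested. Against a threshold of 2-fold, 2 were called higher (Tfrc and Fth1) and 1 lower (Cp), beside 1.22% of all genes in either direction. The genes were chosen with this contrast known, so nothing is read from these counts. The median log2 fold change of the 10 genes was -0.06, beside 0.01 over all genes tested. The call of Fth1 beyond 2-fold was lost without SAFB KD 3 or without control 2, where its log2 fold change was 1.086 and 1.102.

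Levels of different genes can be set side by side only per length, here as CPM per kilobase of merged exons. In SAFB KD the order from high to low was Fth1 (690), Ftl1 (415), Tfrc (142), Ireb2 (17.7), Steap3 (16.6), Aco1 (14.7), Slc11a2 (8.67), Cp (6.08), Ncoa4 (3.13) and Slc40a1 (1.53). In control it was Ftl1 (463), Fth1 (320), Tfrc (58.3), Cp (32.5), Steap3 (24.3), Ireb2 (18.7), Aco1 (14.0), Slc11a2 (7.20), Ncoa4 (3.22) and Slc40a1 (1.82). Cp was thus in place 8 of 10 in SAFB KD and in place 4 in control. Libraries of neighbouring genes did not overlap in either order. The length used moved some places. With the longest transcript Fth1 stood at 538 and Ftl1 at 641 in control, but with the principal transcript Fth1 stood at 742 and Ftl1 again at 641. With the longest transcript Cp (12.7) came just above Slc11a2 (12.5) in SAFB KD, and Ireb2 (30.7) above Steap3 (27.0) in control.

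Heme carries much of the iron that cells use, and heme oxygenase frees it again. Hmox1, the inducible heme oxygenase gene, had 118, 123 and 123 CPM in SAFB KD, against 33.9, 33.8 and 32.98 CPM in control. Its log2 fold change of 1.86 (SE 0.038, adjusted p = 3.89e-32) was the only one of the 93 tested genes outside the 10 to be called beyond 2-fold by edgeR. Hmox1 lay beyond Tfrc and Fth1 in size on the log2 scale, and without control 3 its value was 1.83. The constitutive Hmox2 rose by 0.20 (adjusted p = 6.12e-06), the heme exporter gene Flvcr1 by 0.27 (adjusted p = 0.000207) and Pgrmc1, a heme-binding protein gene, by 0.13 (adjusted p = 0.000282). Heme breakdown and transport had 9 tested genes. Of these 5 rose and 2 fell by the edgeR quasi-likelihood test, beside 21.4% and 20.1% of all genes tested. The falls, of Abcg2 and Slc46a1, were named after their values were seen, and 0 falls passed without SAFB KD 2.

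Macrophages are rich in Hmox1 and ferritin, and their markers were therefore examined beside these values. The summed level of 6 macrophage and leukocyte markers was 39.9 to 41.0 CPM in SAFB KD and 24.0 to 24.7 CPM in control, of which Cd14 made up the larger share. Of the 6 markers 3 had a mean of at least 1 CPM and 4 were tested. By the edgeR quasi-likelihood test 2 were called higher and 0 lower, beside 21.4% and 20.1% of all genes tested. The median log2 fold change was 0.88, and groups did not overlap for 4 of the 4, beside 49% of all genes tested. Ptprc, the general leukocyte marker, had 4 reads over the 6 libraries, and Adgre1, a defining macrophage marker, had 2. The part of these markers in the Hmox1 and ferritin values was not tested.

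In heme synthesis 5 of 12 genes rose and 3 fell by the edgeR quasi-likelihood test, beside 21.4% and 20.1% of all genes tested. Cpox, a late enzyme of the pathway, had the largest change of the list. It had 64.1 ± 1.80 CPM in SAFB KD and 38.1 ± 1.37 CPM in control (log2 fold change 0.76, adjusted p = 6.76e-18). Alas1, which makes the rate-limiting enzyme of heme synthesis outside red cells, rose by 0.57 (adjusted p = 6.76e-11), Clpx by 0.25 (adjusted p = 1.09e-06) and Alad by 0.28 (adjusted p = 1.35e-05). The median over the list was -0.07, since the genes that did not pass lay below 0, as did the 3 that fell.

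Iron-sulfur clusters are the other main use of cellular iron. Of 23 tested genes of mitochondrial iron import and cluster assembly 11 rose and 3 fell by the edgeR quasi-likelihood test, beside 21.4% higher and 20.1% lower over all genes tested. The median log2 fold change of the list was 0.16. Hspa9, the mitochondrial chaperone that takes part in cluster transfer, had 1402 ± 34.7 CPM in SAFB KD and 870 ± 6.43 CPM in control (log2 fold change 0.69, adjusted p = 1.60e-22). Slc25a37, which encodes mitoferrin 1, rose by 0.52 (adjusted p = 3.18e-14) and Nfs1, the cysteine desulfurase gene, by 0.47 (adjusted p = 4.47e-10).

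In the cytosolic assembly pathway 6 of 10 tested genes rose and 0 fell by the edgeR quasi-likelihood test, beside 21.4% higher and 20.1% lower over all genes tested. With an unadjusted p under 0.05 the number that fell was also 0, and it was 0 by DESeq2 and by limma-voom. These fits used the same counts, and in them 5 genes rose by DESeq2 and 6 by limma-voom. Glrx3, an iron-sulfur carrier, had 177 ± 4.46 CPM in SAFB KD and 139 ± 2.99 CPM in control (log2 fold change 0.35, adjusted p = 3.96e-12). Ciao2b, Narfl and Ciao1, all of which deliver clusters to target proteins, rose by 0.53 (adjusted p = 1.95e-09), 0.41 (adjusted p = 4.95e-08) and 0.25 (adjusted p = 8.52e-06). The median log2 fold change of this list was 0.19, beside 0.01 over all genes tested.

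**Figure D4:**
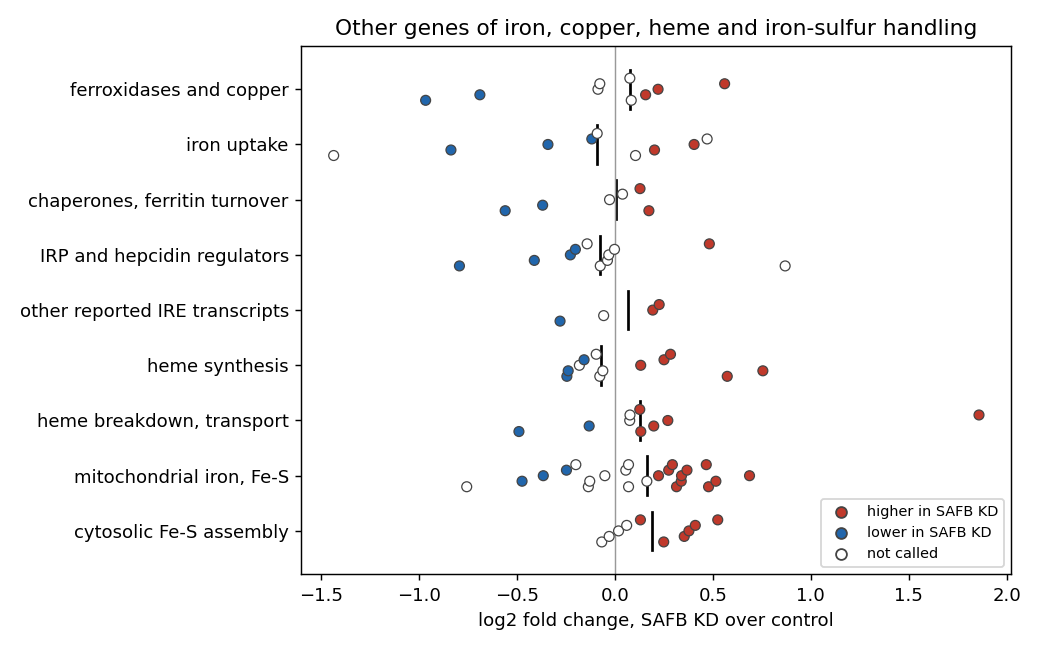
Log2 fold change, SAFB KD over control, of 93 tested genes in 9 lists. Each point is a gene (red higher, blue lower, white not called by the edgeR quasi-likelihood test at an adjusted p under 0.05) and black bars are list medians. Hmox1 stands alone at 1.86, and the cytosolic iron-sulfur list has 6 genes called higher and 0 lower.

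Of other transcripts reported to carry an IRE, 4 of 6 were tested. By the edgeR quasi-likelihood test 2 of these rose and 1 fell, beside 21.4% and 20.1% of all genes tested. Sdhb, a subunit of succinate dehydrogenase, had 71.5 ± 2.23 CPM in SAFB KD and 62.6 ± 0.431 CPM in control (log2 fold change 0.19, adjusted p = 4.64e-05). Cdc14a, a phosphatase gene, fell (-0.28, adjusted p = 0.00173), and Cdc42bpa, a kinase gene, did not pass (-0.06, adjusted p = 0.195).

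Among the 10 genes, those with a 5′ UTR match were thus higher (Fth1 at 1.11) or lower (Ftl1 at -0.16, Slc40a1 at -0.25), and Tfrc, with 3′ UTR matches, was higher (1.28). Over all 93 tested genes outside the 10, 37 rose and 20 fell by the edgeR quasi-likelihood test, beside 21.4% higher and 20.1% lower over all genes tested. Their median log2 fold change was 0.07, beside 0.01 over all genes tested.

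Genes at the same loci were also examined. Genes that overlap on opposite strands share no reads if the counting used strand, which is inferred here. Hps3 runs on the strand opposite to Cp and overlaps it by 13201 bases. Hps3 had 27.1, 28.3 and 28.8 CPM in SAFB KD and 30.03, 29.5 and 30.5 CPM in control (log2 fold change -0.09, SE 0.052, adjusted p = 0.150), far from the change of Cp. Of 15 genes within 5000 bases of one of the 10 or overlapping it, 7 were tested. By the edgeR quasi-likelihood test 3 of these rose and 1 fell, beside 21.4% and 20.1% of all genes tested. The neighbours of Ftl1, Gys1 (0.38, adjusted p = 3.82e-11) and Bax (0.66, adjusted p = 6.85e-16), rose, and so did Timm23 beside Ncoa4 (0.37, adjusted p = 7.00e-09). Hykk, beside Ireb2 on the same strand, fell to 3.77 ± 0.386 CPM in SAFB KD, against 9.03 ± 0.726 CPM in control (-1.25, adjusted p = 3.46e-13). Gm10252, which overlaps Ftl1 on the opposite strand, and 3110009E18Rik, beside Steap3, did not pass (adjusted p = 0.761 and 0.566).

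The genes whose pattern over the 6 libraries was nearest to that of Cp were Gria1, Grk4 and Scly, at Euclidean distances of 0.33, 0.54 and 0.55 on log2 CPM less the control mean, out of 12102 genes that reached a mean of 1 CPM. Gria1, a glutamate receptor gene, had 2.08 ± 0.282 CPM in SAFB KD and 10.6 ± 1.19 CPM in control. All 3 had far fewer reads than Cp.

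The siRNAs are shown because an siRNA can also act on mRNAs that match its seed. Their sense strands, with the 7 bases that pair with the seed of the guide strand in capitals, are as follows.
Safb siRNA: ggaugaccguuACCACUCa
Safb2 siRNA: ugcuuuugaugACAGUAAa
Sltm siRNA: gcauuagaauaAUUCGUGa
Over its 19 bases each matched transcripts of its own target and of 0 other genes. The capital letters of the Safb siRNA were in the 3′ UTR of 6.81% of 20905 genes, among them Tfrc and Ncoa4. Those of the Safb2 siRNA were in 11.1%, among them Slc40a1, Tfrc, Slc11a2 and Ireb2, and those of the Sltm siRNA in 2.19%, with 0 of the 10. Cp, Fth1, Ftl1, Steap3 and Aco1 held none of these letters in the annotated 3′ UTR. A letter match does not show that an siRNA acted on a transcript.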

How the data were processed

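Sequencing was of poly(A)+ RNA from 3 SAFB KD and 3 control libraries, grouped by the sample titles. The deposited counts were whole reads per gene, unscaled, which the authors made by trimming reads and aligning them to GRCm38 (mm10) with STAR 2.7.9a. Per the study's methods the aligner gave reverse-stranded gene counts; that the files hold these is inferred. Such counting drops reads shared by genes that overlap on 1 strand or by near-identical copies. The submitters' processing notes also name deepTools 3.5.1. Identifiers were matched to GENCODE annotation of GRCm38 (54495 of 54532), which gave symbols, coordinates and UTR sequences.

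Genes with at least 10 reads over 6 libraries were tested with edgeR 4.0.16 (R 4.3.3) by TMM scaling and the 2-sided quasi-likelihood test, without covariates. Benjamini-Hochberg adjustment ran over 19452 genes with a threshold of 0.05. Changes beyond 2-fold used glmTreat with a log2 threshold of 1. SE of a log2 fold change is approximate, set from the test, and SD is over 3 libraries. The fit was tested on simulated data with 200 changed genes. Alternatives were DESeq2 1.42.0, limma-voom (limma 3.58.1), upper-quartile scaling, other low-count limits, each library left out and a replicate block. No replicates were duplicates, as their counts gave chi-square values of 3.92 to 19.6 for each degree of freedom.

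The 10 genes and all lists were chosen with earlier results of these data known. Besides the 10 and the knockdown targets, the text names up to 4 genes per list with the smallest adjusted p and any called beyond 2-fold, some of which are not reported here. It adds Heph and Hephl1, tested ferritin pseudogenes, genes within 5000 bases of one of the 10, and the 3 genes nearest to Cp. Marker lists are given as counts and ranges. Other names were chosen after values were seen. Ndor1 was left out because its symbol fits more than 1 identifier, and intron sequence was not analysed here.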

Additional observations from a re-analysis of the deposited data

How the results depend on the processing

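No log2 fold change of the 10 genes turned its sign under any of 12 alternatives, and Cp stayed between -2.44 and -2.40. Ireb2 was called in 8 of the 12. Beyond 2-fold, DESeq2 called 76 genes higher and 55 lower and limma-voom 79 and 58, where edgeR called 136 and 102, and the cause was not tested. Of the 10 genes, 1 to 2 were called higher beyond 2-fold with each library left out, since Fth1 lost that call without SAFB KD 3 or control 2. The median of all genes moved by less than 0.02 on the log2 scale under every scaling. Of the 93 other genes tested, 34 to 37 rose and 18 to 21 fell under the alternatives. Levels per kilobase moved with the length chosen, a choice that included the principal transcript after seeing the data.

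No pairing of the samples by replicate number was seen. Same-numbered libraries correlated at 0.053, 0.015 and -0.001 in their deviations from the group means. So few libraries cannot show that the samples were unpaired. With a replicate block 3 of the 10 genes were higher and 5 lower, Cp stood at -2.42, and the counts over all genes tested were 4186 higher and 3931 lower.

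With 3 libraries a group, p values set each difference against the spread between these cultures only. The edgeR test estimates that spread with help from all genes tested. Genes near 1 CPM, such as Heph and Atp7b, rested on few reads, and their calls depended on control 3. Gene counts show neither protein, iron content nor which introns or exons the reads of Cp came from.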
